A study of Homo sapiens with 6 samples.

Results

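The BCL2 family genes described here are 10 rows of the deposited count table, taken by gene symbol from a table of 16315 genes. They are the survival genes BCL2, BCL2L1 and MCL1, the executioner genes BAX and BAK1, and the BH3-only genes BID, BAD, BCL2L11, PMAIP1 and BBC3. All 10 symbols were found, and all 10 were among the 13841 genes tested. Messenger RNA was sequenced in F36P, an established human leukaemia cell line with erythroid features that grows only with added cytokine. One group of 3 libraries carried the HDAC7 guide (sgHDAC7, genotype labelled HDAC7 knockout), and the other group of 3 carried a non-targeting guide (sgNT, labelled WT). Both groups had received a guide plasmid with puromycin resistance and had been kept in 1 µg/ml puromycin for 4 days. The labels name 1 guide target and 1 cell line, and they call the libraries biological replicates without saying whether these were grown apart. The p-values therefore measure the spread between these libraries, which may be partly technical.

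Proteins of the BCL2 family decide at the outer mitochondrial membrane whether a cell enters apoptosis. BCL2, BCL-XL (the protein of BCL2L1) and MCL1 hold the executioners BAX and BAK in check, and BAX and BAK, once active, form pores that release cytochrome c and start the caspases. The BH3-only proteins carry stress signals to this switch by binding the survival proteins or by activating BAX and BAK directly. In red cell precursors BCL-XL is the best known survival protein, and MCL1 is needed in earlier blood progenitors. Much of the control of these proteins lies in phosphorylation, cleavage and degradation, which messenger RNA does not show.

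Library totals ran from 11645003 to 12521195 counts in sgHDAC7 and from 10039693 to 11149179 in sgNT. A level of 3 counts corresponded to 0.24 to 0.299 CPM (counts scaled to the library total), and the lowest count of any of the 10 genes in any library was 171. HDAC7 itself had 194, 239 and 246 CPM in sgHDAC7 and 450 to 462 CPM in sgNT (edgeR log2 fold change -1.02, adjusted p = 0.00139), so HDAC7 messenger RNA was reduced and not absent. All 14 erythroid marker genes were above the filter of a mean of 1 CPM, with a summed level of 17980 to 25300 CPM in sgHDAC7 and 12540 to 18940 CPM in sgNT. With a replicate 1 term 7 of the 14 were higher in sgHDAC7, where 5.78% of all genes tested were higher. With group alone 0 of the 14 were called, where 2.86% of all genes tested were called. Of 18 markers of other blood lineages 6 were above the filter. The 9 of them in the table summed to 1070 to 1535 CPM in sgHDAC7 and 1164 to 1514 CPM in sgNT, and at most 1 was at 0 in any library. The highest means in sgHDAC7 and sgNT were those of HDC (483 and 519 CPM), ITGA2B (460 and 503), CPA3 (184 and 140) and LYZ (86.4 and 96.0). HDC and CPA3 are mast cell markers and ITGA2B a megakaryocyte marker. Of the 6 tested, CPA3 alone was called, higher with the replicate 1 term (edgeR adjusted p = 0.00316) and not with group alone. The part of either marker list in the results below was not tested. The B cell gene MS4A1, the T cell genes CD3D and CD3E and the monocyte gene CD14 are not analysed here. In each group replicate 1 differed more from the other libraries (chi-square per degree of freedom 7.74 to 15.4) than replicates 2 and 3 did from each other (3.2 in sgHDAC7, 3.5 in sgNT). Values are therefore given by library. Beside the fit with group alone stand one that also holds a replicate 1 term, and the values within each replicate number.

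None of the 10 genes passed edgeR's quasi-likelihood test with group alone, where 2.86% of all genes tested did (adjusted p under 0.05). At an unadjusted p under 0.05 there were 3 of 10, BCL2, PMAIP1 and BBC3, all lower in sgHDAC7, where 19.2% of all genes had such a p. DESeq2 called PMAIP1 alone (adjusted p = 0.0147), and limma called none. For all 10 genes the sgHDAC7 and sgNT ranges overlapped, while 25.1% of all genes had groups that did not overlap. With the replicate 1 term, edgeR called PMAIP1 and BBC3 lower and none of the 10 higher, 2 of 10 genes. In that fit 12.6% of all genes were called, 6.81% lower and 5.78% higher in sgHDAC7. The median log2 fold change of the 10 genes was -0.08, against -0.0016 over all genes tested. RNA from whole cultures was measured, so fewer cells of a kind and less RNA per cell cannot be told apart.

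**Figure D1:**
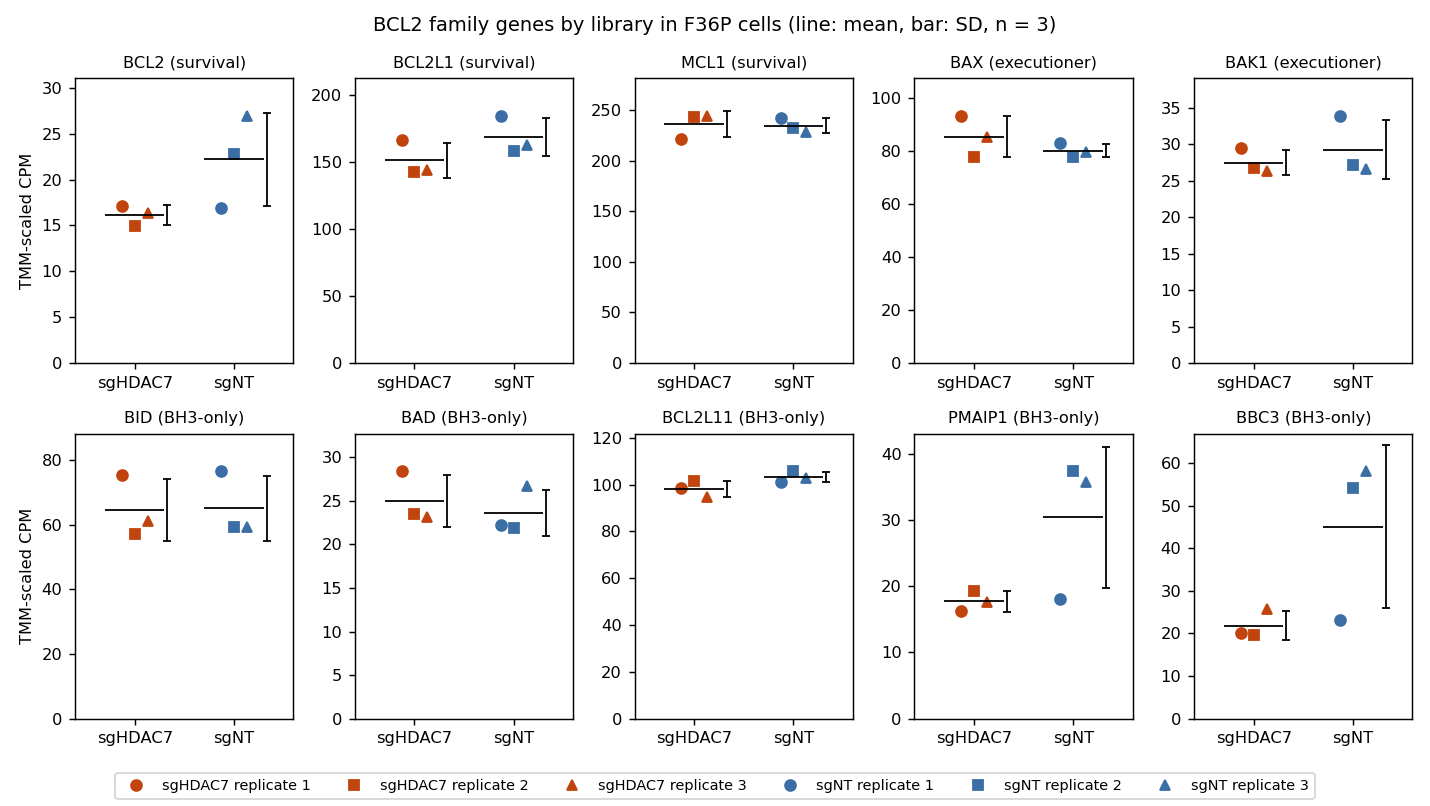
TMM-scaled CPM (vertical axes, from 0) of each of the 10 genes in sgHDAC7 (left) and sgNT (right) libraries; symbols mark the replicate number, lines the mean and bars the SD of 3 libraries. PMAIP1 and BBC3 were at 35.7 to 58.1 CPM in sgNT replicates 2 and 3, while sgNT replicate 1 lay among the sgHDAC7 libraries.

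None of the 3 survival genes was called in the fit on group, and none when a replicate 1 term was added. BCL2 (18:63123346-63320128, minus strand, GRCh38) had 17.1, 14.9 and 16.3 CPM in sgHDAC7 replicates 1, 2 and 3, and 16.9, 22.7 and 27.0 CPM in sgNT replicates 1, 2 and 3. The sgHDAC7 libraries lay close together, sgNT replicate 1 lay among them, and sgNT replicates 2 and 3 were higher. By edgeR the log2 fold change was -0.46 ± 0.17 (SE, n = 3 each, adjusted p = 0.172) and -0.45 ± 0.15 with the replicate 1 term (adjusted p = 0.0629). Exact permutation of the 6 libraries gave a two-sided p = 0.2, where 3 against 3 cannot go below 0.1. On replicates 2 and 3 alone BCL2 was lower by log2 -0.67 (edgeR adjusted p = 4.67e-04). In replicate 1 the log2 ratio was 0.01. In that fit on 2 against 2 libraries 20.6% of all genes were called, and 4 of the 10: BCL2, BCL2L1, PMAIP1 and BBC3, all lower in sgHDAC7. Replicate 1 was left out of it after it was seen to differ, so these calls are no separate support.

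BCL2L1 (20:31664452-31723989, minus strand) had 166.5, 143 and 144 CPM in sgHDAC7 and 185, 158 and 163 CPM in sgNT. Between libraries of the same replicate number, which were not taken as pairs, the sgHDAC7 library was the lower each time, by log2 -0.15, -0.15 and -0.18, although the ranges of the groups overlapped. The edgeR log2 fold change was -0.16 ± 0.09 with group alone (adjusted p = 0.36) and -0.16 ± 0.05 with the replicate 1 term (adjusted p = 0.0722). These 3 ratios lay closer together than those of any other of the 10 genes. On replicates 2 and 3 its value was -0.16 (edgeR adjusted p = 0.043). Table counts do not separate its long survival isoform from its short death-promoting isoform.

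MCL1 (1:150574551-150579738, minus strand), whose short-lived protein binds those of PMAIP1 and BCL2L11, stood at 221, 243 and 245 CPM in sgHDAC7 and at 243, 232 and 228.5 CPM in sgNT. The means, 236 ± 13.1 CPM in sgHDAC7 and 235 ± 7.28 CPM in sgNT (SD, n = 3), differed by less than the spread within either group (edgeR log2 fold change 0.01 ± 0.07, adjusted p = 0.944). The sign of this small value turned with library totals as the only scaling, so no direction is given for MCL1.

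The executioner genes showed no call in any fit. BAX (19:48954815-48961798, plus strand) had 93.4, 78.0 and 85.1 CPM in sgHDAC7 and 82.9, 77.8 and 79.8 CPM in sgNT (edgeR log2 fold change 0.09 ± 0.08, adjusted p = 0.58). BAK1 (6:33572547-33580293, minus strand) had 29.4, 26.7 and 26.3 CPM in sgHDAC7 and 33.9, 27.1 and 26.6 CPM in sgNT (-0.09 ± 0.12, edgeR adjusted p = 0.742). In both groups the replicate 1 library was the highest for BAX and for BAK1, so for these genes the replicate number went with the level in both groups.

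Of the BH3-only genes, BID, BAD and BCL2L11 did not pass in any fit. BID (22:17734138-17774770, minus strand), whose protein is cleaved by caspase-8 and so links death receptors to mitochondria, had 75.5, 57.0 and 61.1 CPM in sgHDAC7 and 76.6, 59.3 and 59.3 CPM in sgNT (edgeR log2 fold change -0.01 ± 0.13, adjusted p = 0.976). The replicate 1 library was again the highest in each group. BAD (11:64269830-64284704, minus strand), whose protein is held inactive by survival kinases, had 28.4, 23.5 and 23.1 CPM in sgHDAC7 and 22.2, 21.9 and 26.7 CPM in sgNT (0.08 ± 0.13, edgeR adjusted p = 0.781). Its ratio was positive in replicates 1 and 2 (log2 0.35 and 0.10) and negative in replicate 3 (-0.21). BCL2L11 (2:111119378-111168447, plus strand) encodes BIM, the BH3-only protein known for cell death after cytokine withdrawal. It had 98.5, 101.5 and 94.7 CPM in sgHDAC7 and 101.3, 106 and 103 CPM in sgNT, a narrow overlap at 101.3 to 101.5 CPM (-0.07 ± 0.06, edgeR adjusted p = 0.58).

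PMAIP1 and BBC3 were the genes with the largest differences. PMAIP1 (18:59899948-59904306, plus strand) encodes NOXA, which binds MCL1 and promotes its degradation. It had 16.2, 19.3 and 17.6 CPM in sgHDAC7 replicates 1, 2 and 3, and 18.1, 37.4 and 35.7 CPM in sgNT replicates 1, 2 and 3. The sgHDAC7 libraries and sgNT replicate 1 lay together, and sgNT replicates 2 and 3 lay apart above them. With group alone edgeR gave a log2 fold change of -0.78 ± 0.24 (adjusted p = 0.111), and the exact permutation test gave p = 0.2. With the replicate 1 term it was -0.74 ± 0.15 (edgeR adjusted p = 0.00669).

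BBC3 (19:47220822-47232766, minus strand) encodes PUMA, which binds all survival proteins of the family and is induced by endoplasmic reticulum stress. It had 20.1, 19.6 and 25.8 CPM in sgHDAC7 and 23.1, 54.1 and 58.1 CPM in sgNT. As for PMAIP1, sgNT replicate 1 fell inside the sgHDAC7 range and sgNT replicates 2 and 3 lay above it. The means were 21.8 ± 3.47 CPM in sgHDAC7 and 45.1 ± 19.2 CPM in sgNT (SD, n = 3), 2.07-fold lower in sgHDAC7. With group alone edgeR gave a log2 fold change of -1.05 ± 0.29 (adjusted p = 0.0867, exact permutation p = 0.2), and with the replicate 1 term -0.98 ± 0.18 (edgeR adjusted p = 0.00407).

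The ratios of PMAIP1 and BBC3 lay further from 0 in replicates 2 and 3 than in replicate 1. For PMAIP1 the log2 ratio of sgHDAC7 to sgNT was -0.16 in replicate 1, -0.95 in replicate 2 and -1.02 in replicate 3. For BBC3 it was -0.21, -1.47 and -1.17. All 3 ratios were negative for both genes. The fit with a replicate 1 term presumes 1 guide difference for all replicate numbers, and whether replicate 1 differed from the others in it was not tested. Without sgNT replicate 1, edgeR called BCL2, PMAIP1 and BBC3 (log2 -0.62, -1.05 and -1.36), 3 of 10 genes, where 11.5% of all genes were called. Without any other single library it called none of the 10.

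**Figure D2:**
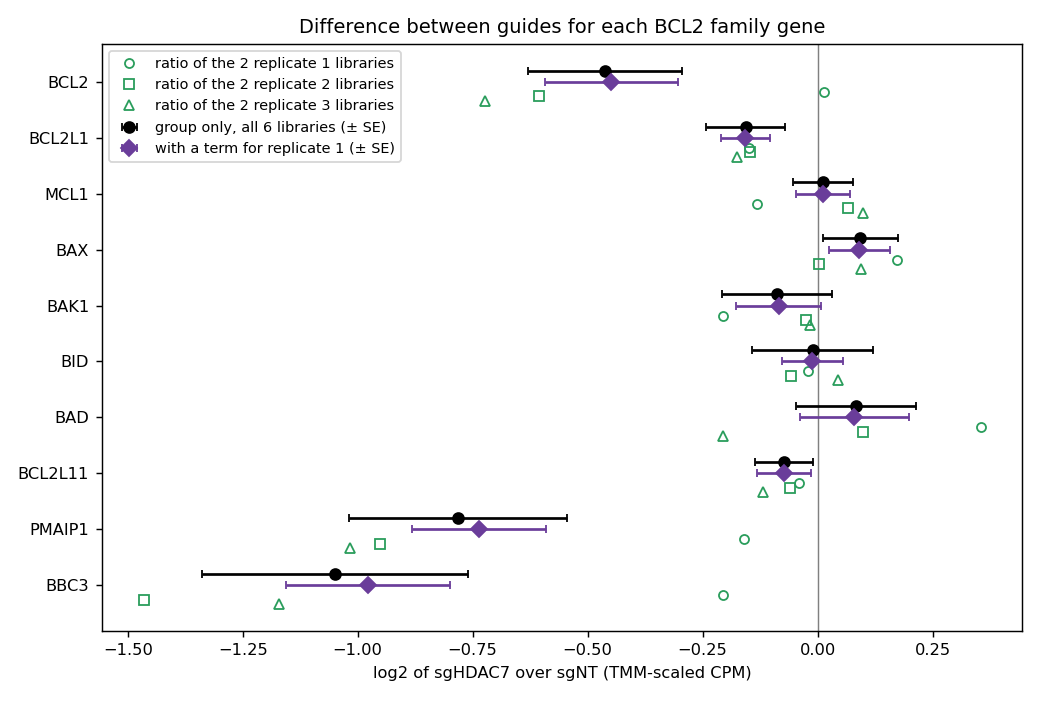
Log2 of sgHDAC7 over sgNT (horizontal axis) for each of the 10 genes, from edgeR with group alone and with a term for replicate 1 (both ± SE), and as the ratio of the libraries of each replicate number. For BCL2, PMAIP1 and BBC3 the replicate 1 ratios (0.01, -0.16 and -0.21) lie near 0 and those of replicates 2 and 3 between -1.47 and -0.61.

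The stretches of DNA before PMAIP1 and BBC3 are shown because these were the genes of the family called with the replicate 1 term. They come from RefSeq (GRCh38.p14) and end at the base before the first start of the gene in GENCODE 29, at chr18:59899746-59899947 (plus strand, 202 bases) and chr19:47232767-47232917 (minus strand, 151 bases). Capitals mark letters that match a searched motif on either strand.
PMAIP1: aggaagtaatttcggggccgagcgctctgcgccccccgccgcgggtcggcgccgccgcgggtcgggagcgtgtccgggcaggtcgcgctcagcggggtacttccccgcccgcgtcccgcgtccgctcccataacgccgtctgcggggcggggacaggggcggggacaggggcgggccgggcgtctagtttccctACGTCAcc
BBC3: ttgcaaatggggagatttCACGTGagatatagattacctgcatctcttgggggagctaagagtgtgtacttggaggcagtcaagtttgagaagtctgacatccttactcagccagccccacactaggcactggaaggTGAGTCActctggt

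The capitals in PMAIP1 are a core of the cAMP response element (TGACGT, here read on the other strand), 8 to 3 bases before the start. This motif is bound by the CREB and ATF proteins. In BBC3 they are an E-box (CACGTG) and an AP-1 motif (TGANTCA). The E-box lies 133 to 128 bases and the AP-1 motif 14 to 8 bases before the start. Among the 35116 windows of 250 bases before a RefSeq start, 7.1% held the TGACGT core, 6.34% the E-box and 6.57% the AP-1 motif. Neither gene's 250-base window held the composite C/EBP-ATF motif TGATGNAA (3.14% of windows), the GATA motif AGATAA (9.17%) or the MEF2 motif of CTA, any 4 bases and TAG (2.36%). MEF2 proteins are the best known partners of HDAC7. PMAIP1 and BBC3 therefore shared none of the 6 motifs in these windows, which says nothing about binding elsewhere. Windows were found for 9 of the 10 genes. The BAX window held 4 E-boxes and the BAD windows the TGACGT core, and 2 of the 5 BID windows an E-box.

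Genes with a profile like that of BBC3, the family gene with the smallest adjusted p, were looked up over the 6 libraries. The measure was the mean absolute distance between log2 levels, each centred on the gene's own mean. The nearest was CEBPB, a transcription factor of the C/EBP family (distance 0.0774), followed by PSPH, an enzyme of serine synthesis (0.103), and THEMIS2, a signalling adaptor of blood cells (0.121). CEBPB had 17.6, 16.1 and 19.6 CPM in sgHDAC7 and 21.4, 43.1 and 47.2 CPM in sgNT (log2 fold change -1.07, edgeR adjusted p = 0.0543). PSPH had 17.7, 16.1 and 17.3 CPM in sgHDAC7 and 17.5, 40.8 and 42.1 CPM in sgNT (-0.97, edgeR adjusted p = 0.0918). THEMIS2 had 28.7, 29.96 and 31.7 CPM in sgHDAC7 and 39.8, 75.4 and 75.9 CPM in sgNT (-1.08, edgeR adjusted p = 0.0317). The groups of CEBPB and THEMIS2 did not overlap, whereas sgNT replicate 1 lay within the sgHDAC7 range of PSPH. CEBPB, PSPH and THEMIS2 were chosen for their likeness to BBC3 in these same libraries. Their differences between the guides therefore follow from the choice and are no separate result. PMAIP1 was the 14th nearest of the tested genes, at a distance of 0.182.

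DDIT3 and TRIB3, the called genes among the transcriptional regulators of the family, were also highest in sgNT replicates 2 and 3. DDIT3, which encodes the stress factor CHOP, averaged 12.6 ± 0.51 CPM in sgHDAC7, where no library was above 12.96 CPM, and had 16.1, 30.0 and 28.7 CPM in sgNT (edgeR log2 fold change -0.99, adjusted p = 0.0437). TRIB3, a pseudokinase induced by that factor, had 29.3, 20.2 and 20.1 CPM in sgHDAC7 and 33.1, 106 and 104 CPM in sgNT (-1.81, edgeR adjusted p = 0.0377). ATF4, a transcription factor upstream of both in the integrated stress response, had 401 to 411 CPM in sgHDAC7 and 441, 645 and 669 CPM in sgNT, and was not called with group alone (edgeR adjusted p = 0.0687). ATF4 was chosen after its values were seen. Whether these genes have a part in the levels of PMAIP1 and BBC3 was not tested.

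**Figure D3:**
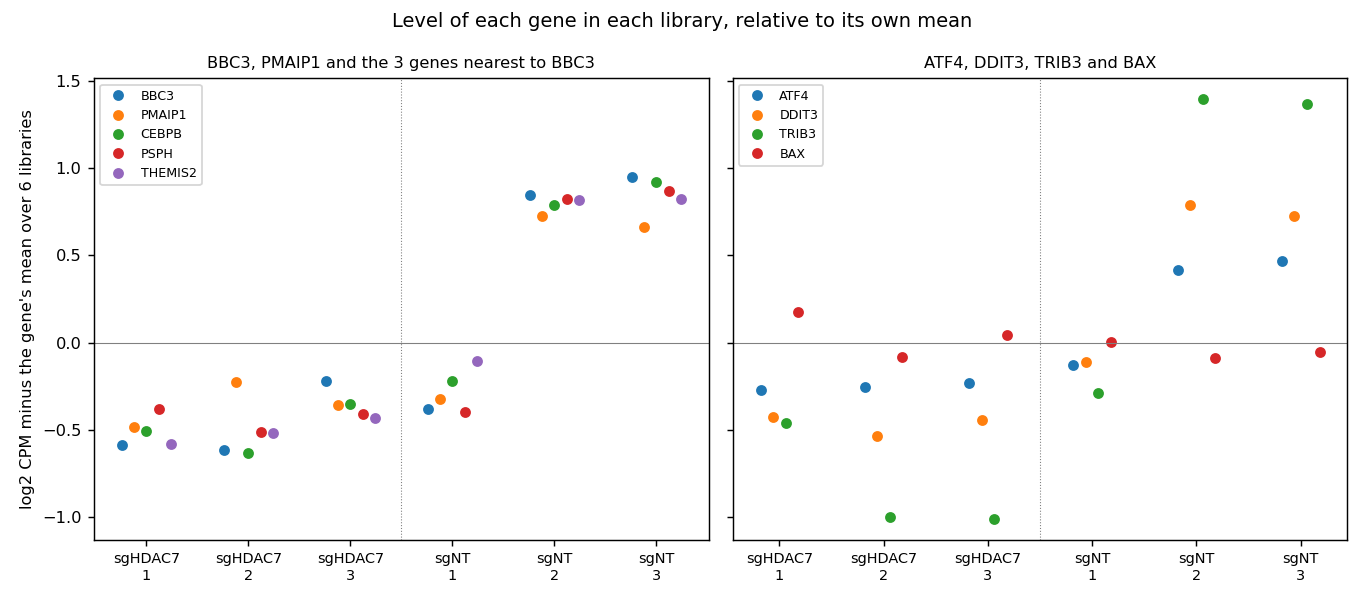
Log2 CPM of each gene in each library minus the gene's mean over 6 libraries (vertical axis), sgHDAC7 left of sgNT. BBC3, PMAIP1, CEBPB, PSPH and THEMIS2 (left panel) and ATF4, DDIT3 and TRIB3 (right panel) were highest in sgNT replicates 2 and 3, whereas BAX stayed within 0.2 of its mean in all 6. CEBPB, PSPH and THEMIS2 were chosen for their likeness to BBC3 in these libraries.

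Survival and death-promoting genes were set against each other within each library, as the mean log2 CPM of BCL2, BCL2L1 and MCL1 minus that of the 7 other genes. This balance of messenger RNA was 1.07, 1.09 and 1.10 in sgHDAC7 and 1.14, 0.97 and 1.02 in sgNT. The sgNT values lay on both sides of the sgHDAC7 values, and the group means differed by 0.04. Between libraries of the same number the difference was -0.07, 0.12 and 0.08. This small difference depended on PMAIP1 and BBC3. Without them the balance was 0.60, 0.71 and 0.75 in sgHDAC7 and 0.74, 0.93 and 0.97 in sgNT. The group means then differed by -0.196, and libraries of the same number by -0.14, -0.22 and -0.23, with a narrow overlap of the groups. PMAIP1 and BBC3 were left out after their values were seen, and neither balance was tested.

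Ratios were also taken between genes whose proteins bind each other. The log2 ratio of MCL1 to PMAIP1 was 3.77, 3.65 and 3.79 in sgHDAC7 and 3.75, 2.64 and 2.68 in sgNT. The log2 ratio of BCL2L1 to BBC3 was 3.05, 2.87 and 2.48 in sgHDAC7 and 3.00, 1.55 and 1.49 in sgNT. In both, sgNT replicate 1 lay within the sgHDAC7 range and the other sgNT libraries below it. The log2 ratio of BCL2L1 to BAX went the other way, at 0.83, 0.87 and 0.76 in sgHDAC7 and 1.16, 1.02 and 1.03 in sgNT. These last groups did not overlap, and between libraries of the same number the ratio was lower in sgHDAC7 by -0.32, -0.15 and -0.27. Of single genes, 25.1% of all tested had groups that did not overlap. The share among ratios of gene pairs was not worked out, so this separation is not set against a background. The log2 ratio of MCL1 to BCL2L11 was 1.17 to 1.37 in sgHDAC7 and 1.14 to 1.26 in sgNT, with overlap. That of BCL2L1 to BAK1 averaged 2.46 in sgHDAC7 and 2.53 in sgNT, and that of BCL2 to BCL2L11 was -2.77 to -2.53 in sgHDAC7 and -2.58 to -1.93 in sgNT, both with overlap. The pairs were chosen for their known binding and are given as descriptions without a test.

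Per kilobase of exon, MCL1 and BCL2L1 were the most abundant transcripts of the family in both groups. MCL1 averaged 54.1 ± 3.00 CPM per kb in sgHDAC7 and 53.7 ± 1.67 in sgNT, and BCL2L1 45.6 ± 4.02 in sgHDAC7 and 50.9 ± 4.27 in sgNT (SD, n = 3). BAX followed at 33.1 ± 2.99 CPM per kb in sgHDAC7 and 31.0 ± 0.99 in sgNT, apart from its neighbours in both groups. BCL2L11, BAD, BID and BAK1 averaged 12.4 to 14.8 CPM per kb in sgHDAC7 and 13.2 to 15.5 in sgNT, and neighbours in that order overlapped. BCL2 was last, at 1.37 ± 0.09 CPM per kb in sgHDAC7 and 1.89 ± 0.43 in sgNT, apart from its neighbour in both groups. PMAIP1 and BBC3 stood between BAK1 and BCL2 in sgHDAC7, at 7.93 ± 0.71 and 6.86 ± 1.09 CPM per kb. In sgNT they were at 13.6 ± 4.79 and 14.2 ± 6.03 CPM per kb, where both overlapped BAD and BAK1. The lengths are those of all GENCODE 29 exons of a gene joined together, which overstates the length of the main transcript where untranslated ends vary, as for BCL2 with 11.8 kb.

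**Figure D4:**
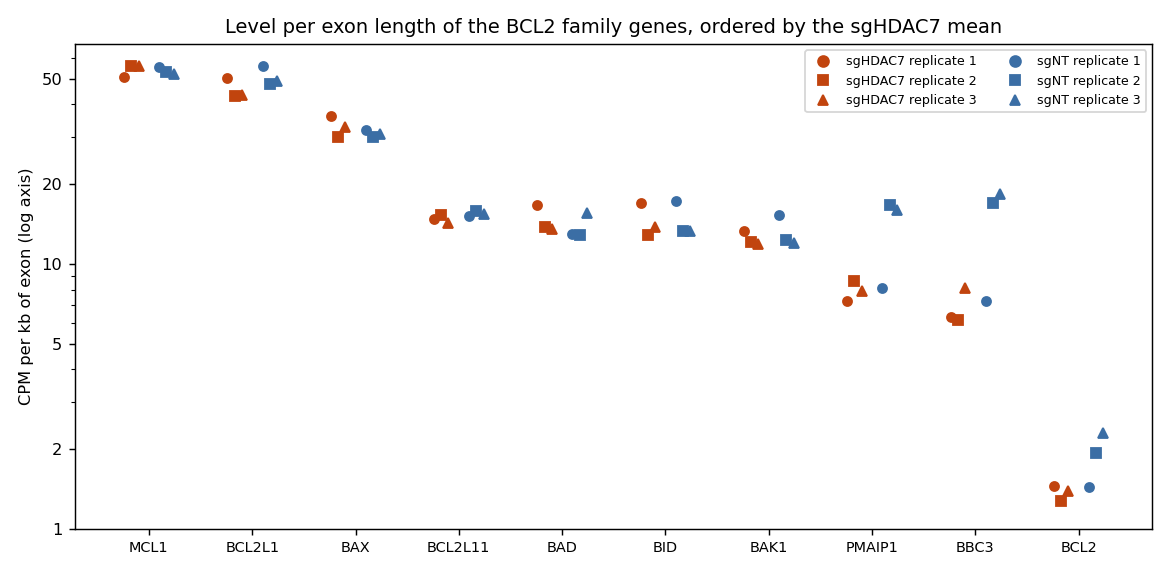
CPM per kb of exon (log axis) of the 10 genes in each library, sgHDAC7 left of sgNT for each gene and genes ordered by the sgHDAC7 mean. MCL1 and BCL2L1 lie between 43.1 and 55.96 CPM per kb in all 6 libraries, and BCL2 between 1.27 and 2.29.

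Other genes of the death machinery gave a few small falls. Of 57 genes in 5 lists (other BCL2 relatives, mitochondrial release and apoptosome, caspases and substrates, inhibitors of apoptosis, death receptors), 47 were tested. Of these 5 fell and 0 rose with group alone, and the median log2 fold change was -0.02. Over all 13841 genes tested 235 were lower and 161 higher with group alone, 2.86% called in either direction. With the replicate 1 term 8 were lower and 2 higher, beside 6.81% lower and 5.78% higher over all genes. The lists were compared with the background by count alone.

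Among BCL2 relatives, BNIP3L, a mitophagy receptor with a BH3-like stretch, had 146.5, 145 and 149 CPM in sgHDAC7 and 168, 206 and 211 CPM in sgNT (log2 fold change -0.41, edgeR adjusted p = 0.0423). It was the single call among the 7 tested of 13. BCL2L2, BCL2L12, BCL2L13, BMF, BIK and BNIP3 were not called, and BOK and BCL2L15 were below the filter. BCL2A1, BCL2L10, HRK and BCL2L14 are not analysed here. OPA1, which shapes the inner mitochondrial membrane and keeps cytochrome c in its folds, fell by 0.26 on the log2 scale (243 ± 5.11 CPM in sgHDAC7, 292 ± 8.56 CPM in sgNT, edgeR adjusted p = 0.0493). It was the single call among 14 genes of mitochondrial release and the apoptosome. None of the 6 tested inhibitor of apoptosis genes was called in either edgeR fit.

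The other 3 falls were in the lists of death receptors (1 of 10 tested) and of caspases and substrates (2 of 10 tested). TNFRSF1A, the main receptor for tumour necrosis factor, had 114, 102 and 99.1 CPM in sgHDAC7 and 136, 149.8 and 157 CPM in sgNT (log2 fold change -0.49, edgeR adjusted p = 0.0202). CFLAR, which encodes the caspase-8 inhibitor c-FLIP, had 104, 102 and 101 CPM in sgHDAC7 and 125.5, 142 and 148 CPM in sgNT (-0.44, edgeR adjusted p = 0.0226). CASP10, an initiator caspase of the same complex, had 55.7, 49.3 and 51.0 CPM in sgHDAC7 and 71.7, 68.1 and 66.7 CPM in sgNT (-0.40, edgeR adjusted p = 0.0317). For all 3 the groups did not overlap and the sgHDAC7 library was below the sgNT library of the same number. They were named because they passed on these same libraries, so this separation adds no support. Groups did not overlap for 17 of the 47 tested genes of the 5 lists and for 25.1% of all genes tested. With the replicate 1 term 3 of the 10 death receptor genes were lower and 1 higher in sgHDAC7. Over all genes 6.81% were lower and 5.78% higher in that fit. Of these death receptor genes TNFRSF1A alone had passed with group alone, and those named next were chosen after their values were seen. TNFRSF10B, a receptor for the death ligand TRAIL, had 19.6, 18.4 and 17.4 CPM in sgHDAC7 and 21.1, 32.9 and 37.4 CPM in sgNT, and passed with the replicate 1 term but not with group alone (log2 fold change -0.70, edgeR adjusted p = 0.0117). As for PMAIP1 and BBC3, its high values were those of sgNT replicates 2 and 3. TNFSF10, the gene of TRAIL itself, was lower by log2 -1.72 in that fit (edgeR adjusted p = 0.023), and was not called with group alone. Its levels were low, at 1.45, 0.345 and 1.38 CPM in sgHDAC7 and 3.62 ± 1.25 CPM in sgNT (SD, n = 3). In sgHDAC7 replicate 2 a level of 3 counts corresponded to 0.258 CPM, so the size of this difference rests on few counts. TNFRSF21, the gene of death receptor 6, was higher, with 25.9, 25.6 and 23.6 CPM in sgHDAC7 and 19.6, 18.2 and 15.7 CPM in sgNT, groups that did not overlap (log2 fold change 0.49 with the replicate 1 term, edgeR adjusted p = 0.0117).

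Upstream genes were taken from 3 lists. Of 15 tested genes for the turnover of MCL1 and BH3-only proteins, 0 were called with group alone, and 1 was higher and 1 lower with the replicate 1 term. Of 22 tested transcriptional regulators of the family 2 fell with group alone, DDIT3 and TRIB3, with a median of -0.145 log2 over the list. With the replicate 1 term 6 were lower and 1 higher. Of 20 survival signalling genes 2 fell with group alone. Once replicate 1 had its own term, 4 were lower and 1 higher. Over all 13841 genes tested 235 were lower and 161 higher with group alone, 2.86% called in either direction. In the fit with the added term the shares were 6.81% lower and 5.78% higher. PIK3CA, the catalytic subunit of the kinase that activates AKT, had 87.7, 93.1 and 86.2 CPM in sgHDAC7 and 118, 122 and 111 CPM in sgNT (log2 fold change -0.39, edgeR adjusted p = 0.0236). CSF2RA, the receptor chain for the cytokine GM-CSF, had 20.5, 17.96 and 15.6 CPM in sgHDAC7 and 23.9, 37.9 and 38.9 CPM in sgNT (-0.90, edgeR adjusted p = 0.0399).

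**Figure D5:**
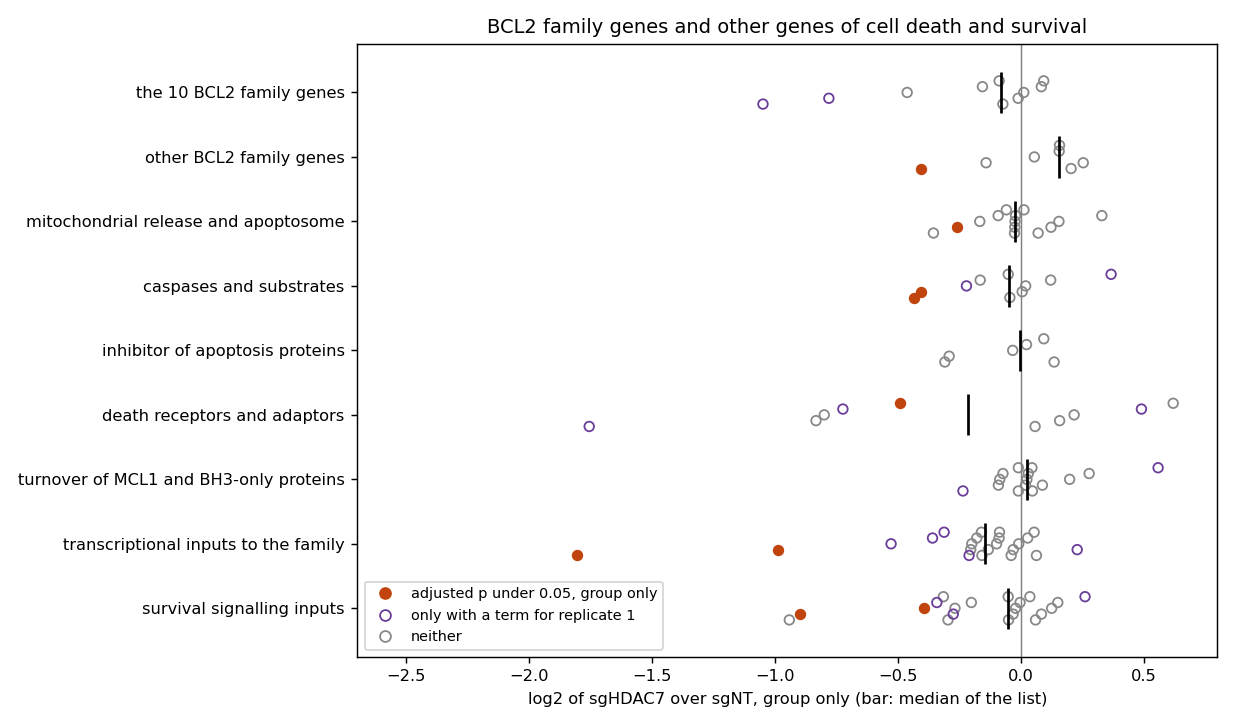
Log2 of sgHDAC7 over sgNT with group alone (horizontal axis) for the 10 genes (top row) and the tested genes of 8 lists, 1 circle a gene and a bar at each median; filled circles passed edgeR with group alone, purple open circles with the replicate 1 term only. None of the 10 genes is filled, and PMAIP1 and BBC3 are purple at -0.78 and -1.05.

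Several of the 10 genes share ground with others in GENCODE 29. BAD overlaps the protein-coding gene GPR137 on the opposite strand, BCL2L11 overlaps the noncoding MIR4435-2HG, BAK1 the pseudogene GGNBP1, and BCL2 and BCL2L1 antisense transcripts. MCL1 overlaps the transcript ADAMTSL4-AS1 on its own strand, and BCL2 also a sense intronic transcript, which strand would not separate. The use of strand in counting is not given in the sources used here, so reads of such partners cannot be told apart. PMAIP1 and BAX overlap no annotated gene, and BBC3 and BID overlap only microRNA genes.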

How the data were processed

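Whole-number read counts per gene were deposited by the authors in 1 table of all 6 libraries. The name of the table says CPM, but 100% of its values are whole and its column totals differ, so they were used as unscaled counts. Genome build hg38 and edgeR 3.32.1 are named in the submitters' processing notes without a role. Neither aligner nor counter nor annotation is given in the sources used here. Every gene listed exceeds 0.5 CPM in at least 2 libraries. Columns named NC were taken as sgNT, the only group without HDAC7 in its name.

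Differences were fitted over all genes with a mean of at least 1 CPM by edgeR 4.0.16 (R 4.3.3; quasi-likelihood test, TMM scaling, two-sided, Benjamini-Hochberg adjustment, threshold 0.05). CPM values are TMM-scaled. Standard errors are the log2 fold change divided by the root of the F statistic. Alternatives were DESeq2 1.42.0, limma 3.58.1 on log2(CPM + 0.5), other scalings and filters, a replicate 1 term, a block for replicate number, and fits that leave out libraries. The scripts were tested on simulated counts first. There 12% of the DESeq2 calls were false, against 6.59% for edgeR and 5.93% for limma. With group alone edgeR recovered 48% of simulated 1.5-fold changes and 79.7% of 2-fold changes, so smaller differences can be missed.

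The 10 genes, the gene lists and the tests were chosen with earlier results of these data known. Named are the 10 genes, HDAC7, up to 4 called genes per list with the smallest adjusted p, and the 3 genes nearest to the family gene with the smallest adjusted p. Exon lengths and positions come from GENCODE 29 (GRCh38). Floors cover counting error only. Some genes of the lists are not reported here.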

Additional observations from a re-analysis of the deposited data

How the results depend on the processing

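Over 17 alternatives, BCL2, BCL2L1, BCL2L11, PMAIP1 and BBC3 stayed lower and BAX higher in sgHDAC7. PMAIP1 ran from -1.05 to -0.60 log2 (adjusted p 2.28e-07 to 0.325, called in 5) and BBC3 from -1.36 to -0.83 (9.73e-10 to 0.286, called in 4). The number of the 10 genes called, 0 with group alone, was 1 with DESeq2, 2 with the replicate block, 2 with the replicate 1 term, 4 on replicates 2 and 3 alone, and 0 to 3 leaving out single libraries, with 3 reached without sgNT replicate 1. Over all genes the count was 396 with group alone, 718, 998, 1743 and 2847 in these 4 settings, and 27 to 1588 leaving out single libraries (228, 27 and 31 without sgHDAC7 replicates 1, 2 and 3, and 1588, 47 and 50 without sgNT replicates 1, 2 and 3). Uncalled genes near 0 changed sign: MCL1 was -0.0057 with library totals alone and -0.0162 to 0.0489 leaving out single libraries. BAD was -0.0587 on replicates 2 and 3, and leaving out single libraries BAD ran from -0.0274 to 0.18, BID from -0.15 to 0.12 and BAK1 from -0.15 to 0.0311. The balance of survival and death-promoting genes ran from 0.0049 to 0.09 leaving out single libraries and was 0.1 on replicates 2 and 3. The cause of these changes was not tested.

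The replicate numbers were not taken to pair the samples. Deviations of same-numbered libraries correlated by 0.303, 0.107 and 0.0968 over genes. Between replicate 1 of either group and the other numbers of the other group the correlations were -0.216 to -0.179. For replicates 2 and 3 the match was unclear, as sgHDAC7 replicate 2 correlated better with sgNT replicate 3 (0.159). The replicate block called PMAIP1 (log2 -0.73, adjusted p = 0.0294) and BBC3 (-0.98, 0.0197).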
